A study of Mus musculus with 8 samples.

Results

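A set of 9 transcripts was listed as Purkinje cell and related cerebellar genes (Car8, Ppp1r17, Pcp2, Calb1, Slc1a6, Lhx1, Ebf1, Kcng4 and Arhgef33) and followed across 8 microarrays of total mouse brain. A gene was valued only through probe sets annotated to exactly 1 gene symbol, which gave values for 8 of the 9 listed genes, out of 22180 genes in all. Pcp2 had no such probe set, since the probe set that covers it is annotated to Pcp2 and Pet100 together. The members were chosen by their log2 differences between wild-type NDP-MSH and wild-type PBS arrays, so their values in that comparison are a description and carry no test.

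Every mouse had received the myelin protein MOG as an immunogen, which in mice provokes T cell attack on central myelin, and brains were taken on day 14, which the labels call the disease maximum. The 4 groups of 2 arrays each were wild-type mice given NDP-MSH, wild-type mice given phosphate-buffered saline (PBS), C57BL/6Je/e mice (e/e below) given NDP-MSH and e/e mice given PBS. Wild-type mice had a black coat and e/e mice a yellow coat, and the e/e allele is known to inactivate the melanocortin receptor gene Mc1r. NDP-MSH, a long-lived synthetic relative of alpha-MSH, activates melanocortin receptors. Days 8, 10 and 12 each brought an intravenous dose of 5 µg of NDP-MSH per mouse. The labels give neither the age nor the sex of the mice, and do not say whether each array holds a separate animal. How much of the spread between arrays is technical is therefore not known. The e/e PBS arrays differed in sex-linked transcripts and the wild-type NDP-MSH arrays in pituitary transcripts, as given below. Values are taken as log2 signal, each gene centred on its median over the 8 arrays, so a value shows how an array differs from the other arrays and not how abundant a transcript is.

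Purkinje cells are the large inhibitory neurons whose axons are the sole output of the cerebellar cortex. They receive excitation from parallel fibres of granule cells and from climbing fibres, and much of their signalling runs through calcium released from internal stores, which calcium-binding proteins buffer. Their somata lie in a single layer, surrounded by Bergmann glia and above the far more numerous granule cells. In total brain RNA, fewer Purkinje cells or less cerebellar tissue cannot be told apart from less of a transcript in each cell.

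The pan-neuronal genes Snap25, Syt1 and Rbfox3 had probe-set signal placed at 8 or above before centring, read from the rounding step that single precision leaves in the values. In 3 groups some arrays stood apart in other transcripts. The pituitary hormone genes Prl and Gh reached 6.97 and 6.54 in the first wild-type NDP-MSH array, with values between -0.47 and 0.29 in the other 7. The olfactory bulb gene Cdhr1 reached 2.23 in the second wild-type NDP-MSH array, where no other array exceeded 0.49. Xist, transcribed from the inactive X of females, had values of -4.46 and -4.56 in e/e mice given NDP-MSH, against 0.56 and -0.82 in the e/e PBS arrays, and Y-linked Eif2s3y lay at 2.78 and 2.87 against -0.02 and 2.04. In e/e mice, a sex difference and an NDP-MSH effect therefore cannot be told apart, and e/e PBS 2 carried both kinds of transcript.

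The start regions of members that have their own entry at the gene's 5′ end in the RefSeq promoter table (build GRCm38.p6) were read. The reason was that the measured members moved together. Pcp2, which has no gene value, was read with them. Of the 9 genes, 6 had at least 1 entry and 4 (Pcp2, Lhx1, Ebf1 and Kcng4) had one at the 5′ end, and the 250 bases before the start were searched on both strands. The motifs were the palindrome of EBF factors, TCCC and GGGA parted by 2 bases, TAATTA of LIM homeodomain factors, AGGTCA, the half-site of ROR receptors that Purkinje cells need, and TATAAA. The windows of Pcp2, Lhx1 and Ebf1 are shown, the first as the member with a match and the others as the genes of transcription factors, and capitals mark a motif match.
Pcp2 (chr8:3625548-3625797, minus strand): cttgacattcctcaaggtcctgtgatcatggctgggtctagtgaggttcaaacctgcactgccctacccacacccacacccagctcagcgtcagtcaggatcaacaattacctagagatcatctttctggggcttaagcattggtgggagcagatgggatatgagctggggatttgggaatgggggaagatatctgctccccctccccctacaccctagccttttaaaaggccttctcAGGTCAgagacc
Lhx1 (chr11:84525535-84525784, minus strand): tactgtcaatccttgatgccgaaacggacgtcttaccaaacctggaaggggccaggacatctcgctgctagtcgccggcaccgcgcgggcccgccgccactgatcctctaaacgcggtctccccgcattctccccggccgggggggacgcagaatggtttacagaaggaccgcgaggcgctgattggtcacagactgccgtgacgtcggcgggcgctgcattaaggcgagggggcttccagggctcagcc
Ebf1 (chr11:44617850-44618099, plus strand): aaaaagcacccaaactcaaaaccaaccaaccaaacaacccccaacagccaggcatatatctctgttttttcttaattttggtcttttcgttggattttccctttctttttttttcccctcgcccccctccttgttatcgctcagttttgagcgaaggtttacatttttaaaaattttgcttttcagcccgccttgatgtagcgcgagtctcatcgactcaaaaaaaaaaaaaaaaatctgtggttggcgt
The Pcp2 window held 1 match to AGGTCA, beginning 12 bases before the start, and the Lhx1, Ebf1 and Kcng4 windows held none of the 4 motifs. Among 32817 windows of the same length, 14% held AGGTCA, 12.4% TATAAA, 4.85% TAATTA and 0.78% the EBF palindrome. GC content was 64.8% in the Lhx1 window, 60.4% in that of Kcng4, 52.8% in that of Pcp2 and 40% in that of Ebf1. The matches are letters in a window and not shown sites.

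The first comparison sets NDP-MSH against PBS in wild-type mice. All 8 measured members were lower in both wild-type NDP-MSH arrays than in each of the other 6 arrays. The group means differed by between -2.41 and -0.74, with a median of -1.40, where the median of all 22180 genes was 0.02 and 45% of genes were lower. Both NDP-MSH arrays lay below both PBS arrays in 8 of 8 members, a count that the choice of members used, and in 18.9% of all genes. The opposite order held in 0 members and in 25.3% of all genes. Car8, Ppp1r17 and Arhgef33 stood at about the same low level relative to PBS, the other 5 closer to it.

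Among the genes of calcium and phosphatase signalling, Car8 encodes a carbonic anhydrase-related protein that lacks the enzyme activity and binds the inositol trisphosphate receptor. It lay at -2.60 and -2.03 in wild-type NDP-MSH mice, 0.01 and 0.04 in wild-type PBS mice, -0.01 and -0.05 in e/e NDP-MSH mice, and 0.08 and 0.30 in e/e PBS mice. The 2 wild-type NDP-MSH arrays were the low ones, with a gap of 1.98 to the next array. The difference was -2.34 ± 0.17 (SE from the limma fit, n = 2 per group), 5.06-fold lower with NDP-MSH, or 19.8% of the PBS level.

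Ppp1r17 encodes G-substrate, a protein phosphatase inhibitor phosphorylated by cGMP-dependent kinase. It lay at -2.74 and -1.89 in wild-type NDP-MSH mice, -0.01 and 0.21 in wild-type PBS mice, 0.19 and -0.44 in e/e NDP-MSH mice, and 0.01 and 0.16 in e/e PBS mice. It had the widest spread of the 8 members both between the wild-type NDP-MSH arrays and over the other 6 arrays, whose values covered 0.65, and the 2 ranges did not overlap. The difference was -2.41 ± 0.29, or 18.8% of the PBS level.

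Calb1 encodes calbindin, a calcium buffer of Purkinje cells that neurons of cortex, hippocampus and striatum also make. It lay at -0.80 and -0.70 in wild-type NDP-MSH mice, -0.09 and 0.05 in wild-type PBS mice, 0.08 and -0.05 in e/e NDP-MSH mice, and 0.08 and 0.17 in e/e PBS mice. The wild-type NDP-MSH arrays were again below all others, by a gap of 0.62. Its difference of -0.74 ± 0.09 was the smallest of the 8, at 60% of the PBS level.

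Of the membrane proteins, Slc1a6 encodes the glutamate transporter of Purkinje cell dendrites and spines. Its values were -1.52 and -1.21 in wild-type NDP-MSH mice, -0.02 and 0.24 in wild-type PBS mice, 0.07 and -0.04 in e/e NDP-MSH mice, and 0.02 and 0.25 in e/e PBS mice. The difference was -1.48 ± 0.14, or 35.9% of the PBS level, with no overlap between the wild-type groups. Of the 8 members, Slc1a6 followed the members' median profile most closely (Pearson r = 0.998 over the 8 arrays, a median to which it contributes).

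Kcng4 encodes a modifier subunit of voltage-gated potassium channels. It lay at -0.97 and -0.88 in wild-type NDP-MSH mice, -0.01 and 0.03 in wild-type PBS mice, 0.16 and -0.02 in e/e NDP-MSH mice, and 0.01 and 0.03 in e/e PBS mice. Its 6 other arrays covered 0.18, the narrowest range of the members, and lay 0.86 above the higher wild-type NDP-MSH array. The probe-set signal of Kcng4 and Lhx1 was placed at 4 to 8 before centring, that of the other measured members at 8 or above. Its part in the size of ranges and differences was not tested. The Kcng4 difference was -0.93 ± 0.08, or 52.4% of the PBS level.

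The transcription factor genes were Lhx1, a LIM homeodomain gene needed for Purkinje cell differentiation, and Ebf1, an EBF family gene that B cells, pericytes and striatal neurons also use. Lhx1 lay at -1.23 and -1.13 in wild-type NDP-MSH mice, 0.03 and 0.26 in wild-type PBS mice, -0.11 and -0.00 in e/e NDP-MSH mice, and 0.00 and 0.17 in e/e PBS mice. Ebf1 lay at -1.04 and -1.20 in wild-type NDP-MSH mice, 0.00 and 0.20 in wild-type PBS mice, 0.03 and 0.09 in e/e NDP-MSH mice, and -0.03 and -0.00 in e/e PBS mice. Both genes separated the wild-type NDP-MSH arrays from the rest, by gaps of 1.02 and 1.01. Their differences were -1.33 ± 0.10 and -1.22 ± 0.09. Ebf1 was the single member that was lower in wild-type NDP-MSH 2 than in wild-type NDP-MSH 1, and the other 7 had the opposite order.

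Arhgef33 belongs by its name to a family of guanine nucleotide exchange factors. It lay at -2.51 and -2.16 in wild-type NDP-MSH mice, -0.08 and 0.20 in wild-type PBS mice, 0.08 and -0.27 in e/e NDP-MSH mice, and 0.21 and 0.33 in e/e PBS mice. The wild-type NDP-MSH arrays were 1.90 below the next array. Its difference of -2.39 ± 0.16 (5.26-fold lower) lay between those of Ppp1r17 and Car8.

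**Figure D1:**
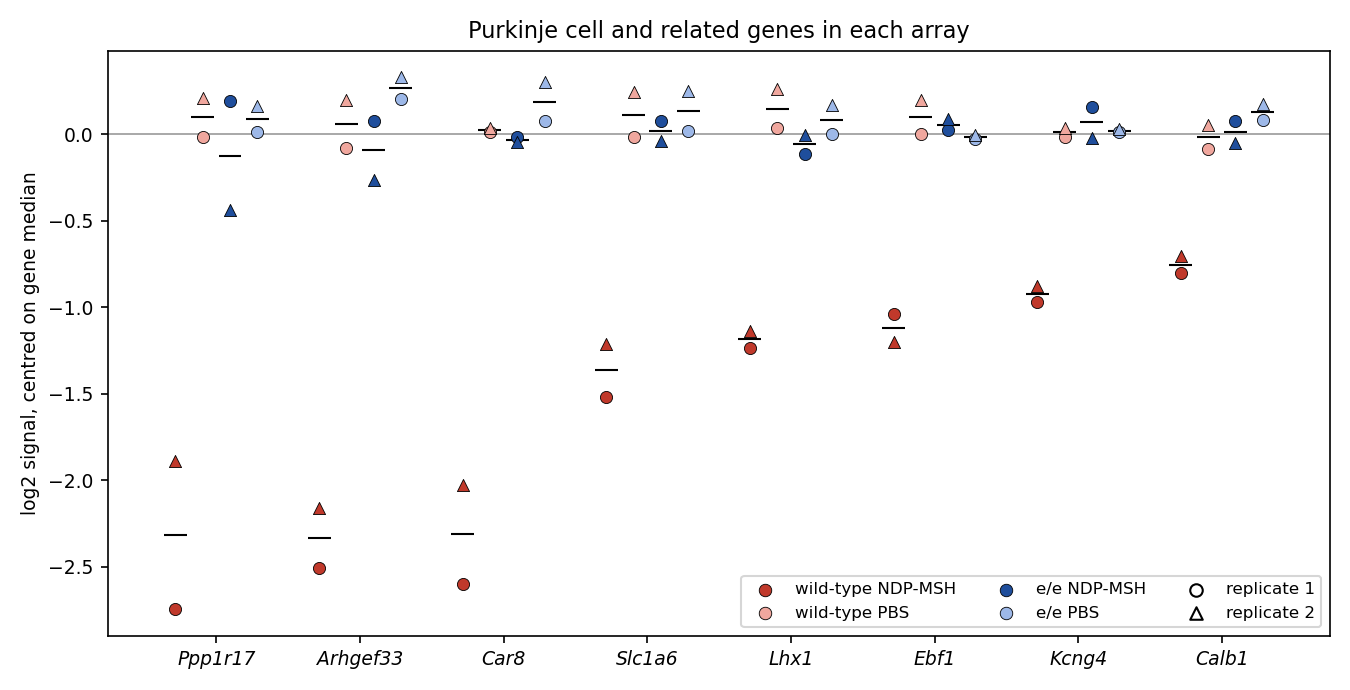
Log2 signal of the 8 measured members, centred on each gene's median (vertical axis), in the 4 groups; circles and triangles are replicates 1 and 2 and short lines are group means. The wild-type NDP-MSH arrays lie below the other 6 arrays for every gene plotted, from -2.74 for Ppp1r17 to -0.70 for Calb1.

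Counted from the most negative difference of all 22180 genes, Ppp1r17, Arhgef33 and Car8 ranked 4, 5 and 6, Slc1a6 13, Lhx1 20, Ebf1 24, Kcng4 54 and Calb1 110. Those are the values that the listing used, and the order carries no test.

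Whether other genes of the cerebellum moved in the same comparison was read from lists that hold none of the members. These lists, and those of other cerebellar cell types below, were also chosen with earlier results of these data known. Their calls are therefore no independent support. Of 30 further genes known from Purkinje cells 23 had a value, 22 were lower with NDP-MSH in wild-type mice, and the median was -0.50. By limma over all genes 4 of the 23 fell and 0 rose, where 0.171% of all genes fell and 0.00451% rose. These were Atp2a3, a calcium pump of the endoplasmic reticulum (-1.42 ± 0.11, adjusted p = 0.0099), Homer3, a postsynaptic scaffold (-1.04 ± 0.13, adjusted p = 0.0364), Pvalb, the calcium buffer parvalbumin, which cortical interneurons also make (-0.86 ± 0.08, adjusted p = 0.0187), and Inpp5a, an inositol phosphate phosphatase (-0.84 ± 0.10, adjusted p = 0.0318). Atp2a3 lay at -1.28 and -1.25 in wild-type NDP-MSH mice, 0.05 and 0.26 in wild-type PBS mice, -0.00 and -0.17 in e/e NDP-MSH mice, and 0.00 and 0.25 in e/e PBS mice. Without wild-type PBS 2 or wild-type NDP-MSH 1, 0 of these 4 calls were made, without wild-type PBS 1, wild-type NDP-MSH 2 or either e/e NDP-MSH array 1 was made, and the differences stayed between -1.52 and -0.74.

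Other members of that list lay near 0. Pcp4 was at -0.06 ± 0.08, Dab1 at -0.04 ± 0.09 and Aldoc, the aldolase of a subset of Purkinje cells and of astrocytes, at -0.17 ± 0.07, and none passed the threshold. The one gene with a positive difference was Itpka, a kinase of forebrain neurons too (0.35 ± 0.15, adjusted p = 0.404). The choice of these 4 genes was made with their values in view.

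Some genes of other cerebellar cell types also fell in wild-type NDP-MSH mice. Of 20 granule cell genes 17 were lower (median -0.64) and 4 fell, among them Cbln3, a synapse organiser (-3.05 ± 0.21, limma, adjusted p = 0.00662), and Gabra6, a GABA receptor subunit (-3.02 ± 0.20, adjusted p = 0.00662). Of 13 Bergmann glia and cerebellar astrocyte genes 2 fell, Dao, a D-amino acid oxidase (-1.96 ± 0.18), and the growth factor gene Gdf10 (-1.48 ± 0.17), while the list's median was -0.08 with 4 genes higher. Of 15 interneuron and unipolar brush cell genes 1 fell, the transcription factor gene Tfap2b (-1.33 ± 0.16), while the list's median was -0.17 with 6 genes higher. No gene rose in these 3 lists. Without either wild-type PBS array or without wild-type NDP-MSH 1, none of Dao, Gdf10 and Tfap2b passed, and Gdf10 and Tfap2b also did not pass without wild-type NDP-MSH 2 or either e/e NDP-MSH array. Of the granule cell genes 0 passed without wild-type PBS 2, and 2 without either wild-type NDP-MSH array.

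Per array, the members' median was -1.38 and -1.21 with NDP-MSH in wild-type mice and between -0.04 and 0.20 in the other 6 arrays. That of the granule cell list lay at -0.76 and -0.49, against values between -0.14 and 0.22. The pan-neuronal list of 10 genes had medians of 0.02 and -0.00 in wild-type NDP-MSH mice and between -0.07 and 0.07 in the others, and 0 of its genes passed. The cortex and hippocampus list lay at 0.17 and 0.15, against -0.03 and -0.19 in wild-type PBS mice. Of its 16 genes 13 were higher and 3 lower with NDP-MSH in wild-type mice. Both NDP-MSH arrays lay above both PBS arrays in 10 of them, against 25.3% of all genes, and below in 1, against 18.9%. By limma 0 of the 16 passed, where 0.176% of all genes did, and in a list this short 0 is near the general share.

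**Figure D2:**
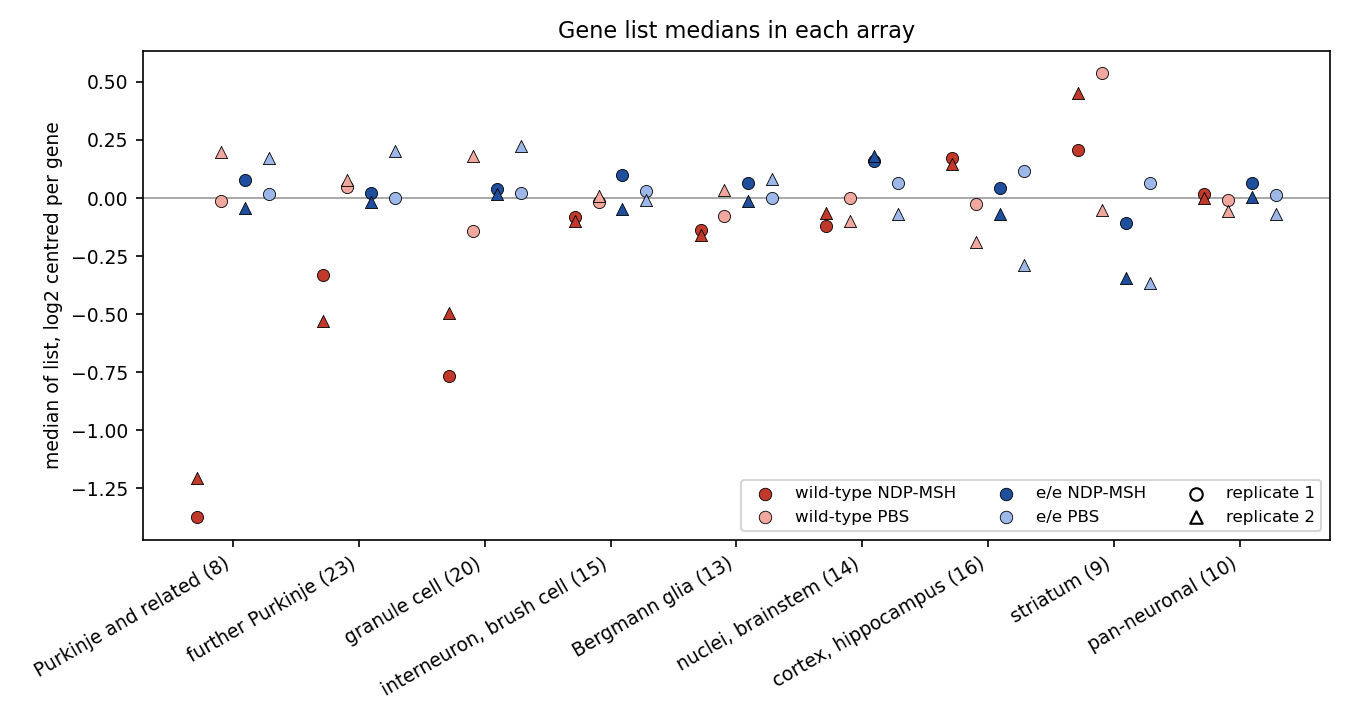
Median of each gene list (number of measured genes in brackets) in each array, on the centred log2 scale; colours are groups, circles and triangles replicates 1 and 2. The members, the further Purkinje genes and the granule cell genes have their lowest medians in both wild-type NDP-MSH samples. So do the interneuron and brush cell list (-0.08 and -0.10) and the Bergmann glia list (-0.14 and -0.16), by less. The pan-neuronal median stays between -0.07 and 0.07.

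Cells outside the cerebellum that also express a member were read beside it. For Ebf1, 0 of 10 pericyte and smooth muscle genes and 0 of 7 B cell genes passed in wild-type mice, with medians of 0.06 and -0.07. Of all genes 0.176% passed, so a count of 0 in lists this short is near the general share. Of the B cell genes 5 were lower and 2 higher. Both NDP-MSH arrays lay below both PBS arrays in 3 of these 7, against 18.9% of all genes. For Calb1 and Ebf1, 0 of 9 striatal genes passed, with a median of 0.18. The list of cerebellar nuclei, hindbrain and brainstem genes is partly cerebellar and was tied to no member. It had a median of -0.06, with 9 genes lower and 5 higher, and 0 of its 14 genes passed. Its smallest p belonged to the glycine transporter gene Slc6a5, also expressed by cerebellar interneurons, at -1.19 ± 0.20 (limma, adjusted p = 0.115). The pituitary genes Prl and Gh and the olfactory bulb gene Cdhr1 moved with this group too, each high in 1 of its 2 arrays. The olfactory bulb list as a whole moved less. Its 9 genes had a median of 0.33 in wild-type NDP-MSH 2, with values from -0.66 to 2.23. With NDP-MSH in wild-type mice 7 of the 9 were higher and 2 lower, and the median difference was 0.07. The part of pituitary and olfactory bulb transcripts in the members' values was not tested. The members' median difference was -1.31 without wild-type NDP-MSH 1 and -1.51 without wild-type NDP-MSH 2.

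Over the 8 arrays, the non-member genes whose profile was most like the members' median were Cbln3 (Pearson r = 0.998), Cbln1 (0.995), Gabra6 (0.993), Atp2a3 (0.992), Gdf10 (0.989), Cnksr3 (0.989), Plekhd1 (0.987) and Meis1 (0.986). The search covered the 593 named genes whose values spanned at least 1 over the arrays. These 8 arrays share the split between wild-type NDP-MSH and the rest, which sets most of each r, so the values describe likeness and carry no p. Of the first 5, 3 are granule cell genes, 1 is a Purkinje gene and 1 a Bergmann glia gene by the lists used here.

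NDP-MSH was next set against PBS in e/e mice, whose 4 arrays are not those in which the members were listed. The fit pools the spread of all 8 arrays, so the p values and intervals below also rest on the wild-type arrays. None of the 8 members passed by limma (adjusted p = 1 for each), and 0 of 22180 genes did (0%), with 789 (3.56%) at an unadjusted p under 0.05. The members differed by between -0.36 and 0.07, with 6 lower and 2 higher and a median of -0.13, where the median of all genes was 0.01 and 46.3% were lower. The differences, NDP-MSH minus PBS, with 95% intervals were -0.36 (-0.74 to 0.02) for Arhgef33, -0.22 (-0.62 to 0.18) for Car8 and -0.21 (-0.89 to 0.47) for Ppp1r17. For Lhx1 the interval was -0.39 to 0.10, for Calb1 -0.32 to 0.09 and for Slc1a6 -0.44 to 0.21. Kcng4 (0.05, interval -0.15 to 0.24) and Ebf1 (0.07, interval -0.15 to 0.29) had positive differences.

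In this comparison both e/e NDP-MSH arrays lay below both e/e PBS arrays in 4 of 8 members, against 14.3% of all genes. These were Car8, Calb1, Lhx1 and Arhgef33. Ebf1 alone had both above, against 16% of all genes. e/e PBS 2 had the highest value of the 6 arrays outside wild-type NDP-MSH in 4 of 8 members, and e/e NDP-MSH 2 the lowest in 5. The median difference of the members was -0.06 without e/e PBS 2, -0.23 without e/e PBS 1, -0.05 without e/e NDP-MSH 2 and -0.17 without e/e NDP-MSH 1. An interferon gamma response list lay at -1.93 and -2.00 in e/e NDP-MSH mice, against -1.71 and 0.70 in e/e PBS mice, so the PBS array with the high members was also the one with high interferon genes. Its part in the members' values was not tested. Of the 23 further Purkinje genes 16 were lower, 0 passed and the median was -0.06, and the smallest p was that of Homer3 (-0.34 ± 0.13, adjusted p = 1).

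**Figure D3:**
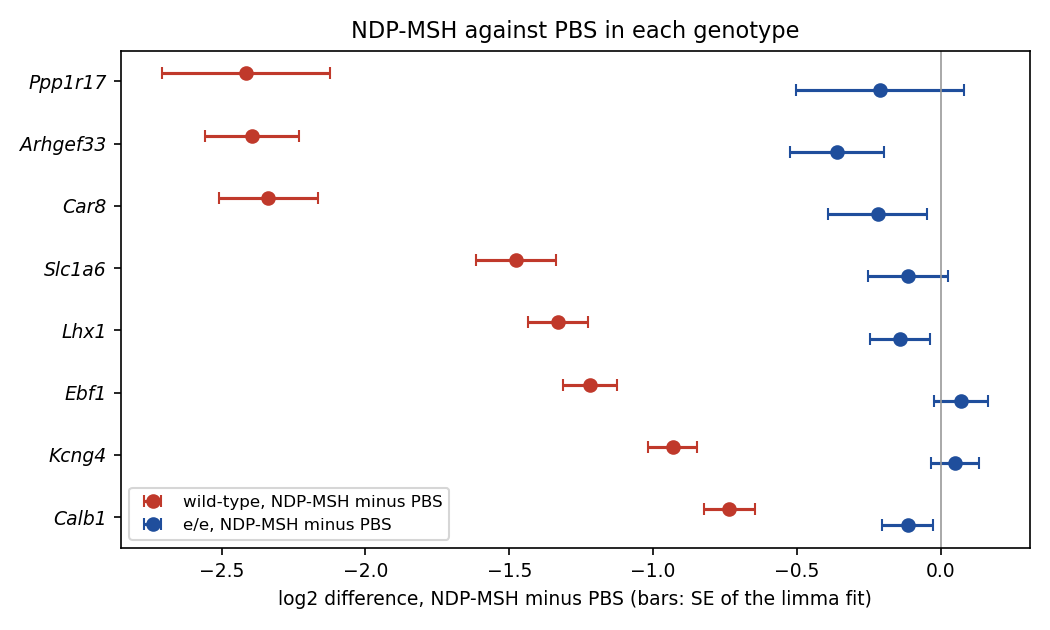
Log2 difference between NDP-MSH and PBS mice (horizontal axis) for each measured member in wild-type and e/e mice; points are differences of group means and bars are SE of the limma fit over 8 arrays. Wild-type differences run from -2.41 to -0.74 and e/e differences from -0.36 to 0.07.

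The difference between the 2 NDP-MSH effects, wild-type minus e/e, was negative in 8 of 8 members, between -2.20 ± 0.41 for Ppp1r17 and -0.62 ± 0.13 for Calb1, with a median of -1.33. It contains the wild-type comparison that the listing used and is given with no test for the members. Over all genes 0 of 22180 passed by limma (smallest adjusted p = 0.126), with 1711 (7.71%) at an unadjusted p under 0.05.

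**Figure D4:**
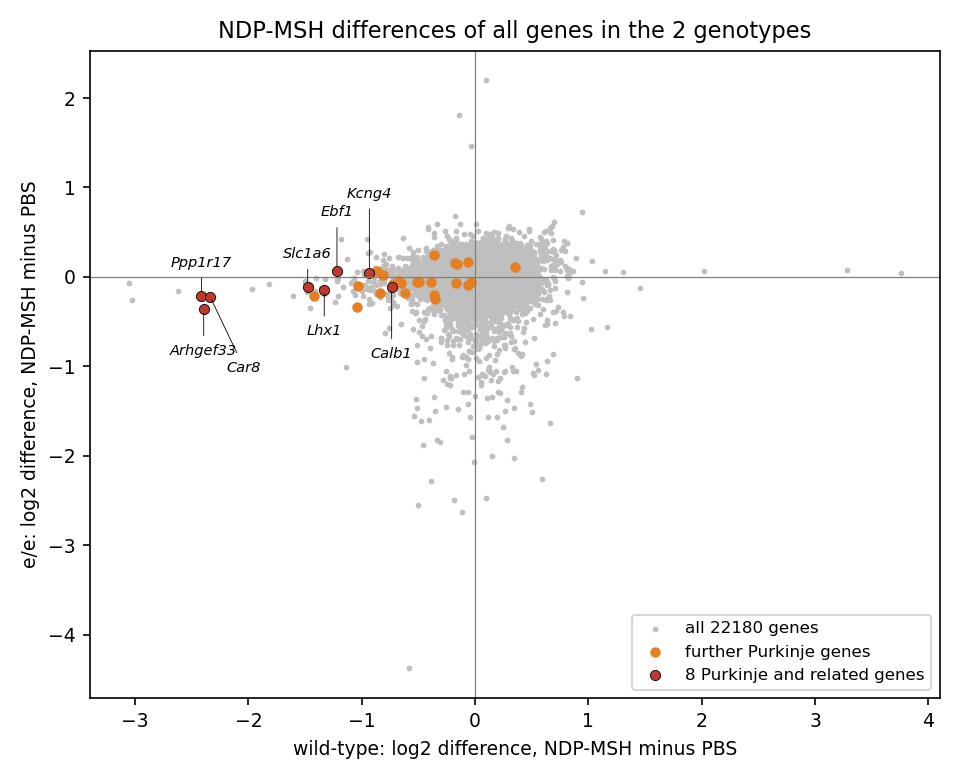
Log2 difference between NDP-MSH and PBS mice in wild-type mice (horizontal axis) and e/e mice (vertical axis) for all 22180 genes (grey), the 23 further Purkinje genes (orange) and the 8 measured members (red). The members lie between -2.41 and -0.74 on the horizontal axis and between -0.36 and 0.07 on the vertical axis.

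Under PBS, e/e mice were set against wild-type mice, with arrays that the comparisons above also use. The wild-type PBS arrays are among those by which the members were chosen, so for the members this is no independent test. Sex-linked transcripts moved with 1 of these arrays, since Eif2s3y had values of -0.02 and 2.04 in e/e PBS mice, against 0.02 and -0.07 in wild-type PBS mice, and the members' median difference was -0.04 without e/e PBS 2. All 13 interferon gamma response genes had a lower mean in e/e PBS mice (median -0.74), and 0 passed. Their arrays were split, with list medians of -1.71 and 0.70 in e/e PBS mice and -0.29 and 0.66 in wild-type PBS mice. Both e/e PBS arrays lay below both wild-type PBS arrays in 1 of the 13, against 16.7% of all genes. The part of the sex-linked and interferon transcripts in the members' values was not tested. None of the 8 members passed (limma, adjusted p between 0.989 and 0.999), and 0 of 22180 genes did (0%), with 1088 (4.91%) at an unadjusted p under 0.05. The members differed by between -0.11 for Ebf1 and 0.21 for Arhgef33, e/e minus wild-type, with a median of 0.02. The 95% interval was -0.17 to 0.59 for Arhgef33, -0.24 to 0.57 for Car8 and -0.69 to 0.67 for Ppp1r17, and for the other 5 genes it stayed within -0.33 to 0.35. Both e/e PBS arrays lay above both wild-type PBS arrays in 3 of 8 members, against 17.4% of all genes, and below them in 1, against 16.7%.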

How the data were processed

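Total brain RNA of 8 samples was hybridised to Affymetrix whole-transcript arrays after labelling of cDNA with biotin, per the labels' protocols. The deposited table holds 33793 probe sets, and its values are taken as log2 signal that the authors centred per probe set, as found from the values. How the authors summarised and normalized the arrays, and the log base, is not given in the sources used here; folds rest on base 2. Rows were found to be centred on their median (largest absolute row median 5e-07).

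By the platform annotation, 23521 probe sets had 1 gene symbol, 1814 several and 8458 were unnamed here. Only the first were used, averaged per gene (22180 genes, 1082 with more than 1 probe set). The step left by single precision in values within 1 of the row median (tolerance 0.05 of a step) placed the signal at 8 or above for 7761 probe sets. Each of the 8 measured members had 1 probe set of its own.

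Limma 3.58.1 in R 4.3.3 was fitted over all 8 arrays with 1 coefficient per group (4 residual and 3.45 prior degrees of freedom), two-sided, with Benjamini-Hochberg adjustment over all genes at 0.05. With 2 arrays per group an exact permutation test could not reach 0.05. The number of arrays limits the precision.

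The members and lists were chosen with earlier results of these data known. Named genes are the members, the largest wild-type changes past the threshold in each list (otherwise the smallest p), the smallest p of a list in e/e mice and the 8 genes most like the members in profile. Genes of lists outside the cerebellum are named only where they touch a result. Alternatives tried were array weights, a block for the replicate number, quantile normalization, centring on array medians, genes with 1 probe set, signal at 8 or above, robust moderation, only the 4 arrays compared, and leaving out each array. Promoter windows came from RefSeq, GRCm38.p6. The labels name no batch, and none was tested. Plots were made in matplotlib 3.10.9.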

Additional observations from a re-analysis of the deposited data

Results flagged for a closer look

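A pair of probe sets outside the gene values carry members together with a neighbour. The probe set annotated to Pcp2 and Pet100 lay at -1.81 and -1.29 in wild-type NDP-MSH mice, -0.07 and 0.27 in wild-type PBS mice, 0.38 and -0.10 in e/e NDP-MSH mice, and 0.07 and 0.30 in e/e PBS mice. Its difference was -1.65 in wild-type mice and -0.04 in e/e mice, and which of the genes carries the signal was not tested. The probe set annotated to Lhx1 and the antisense gene Lhx1os differed by -0.79 in wild-type mice, with both NDP-MSH arrays below the other 6, and by -0.10 in e/e mice.

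For 1 member, Ebf1, every array moved one way in wild-type mice (-1.22) and the other way in e/e mice (0.0713), a difference that was not tested because the wild-type values chose the member. Such opposite movement was seen in 6.43% of all 22180 genes. The e/e value lies within its SE of 0. Among the other genes reached by the naming rule, the same opposite movement was seen for Slc6a5 (-1.19 in wild-type and 0.43 in e/e mice), the noradrenergic gene Dbh (-0.42 and 0.53), Lgi2 (-0.17 and 0.29), Dsp (0.31 and -0.56), the chemokine gene Cxcl10 (0.59 and -2.26) and Eif2s3y (-0.14 and 1.81). For each, the difference between the effects did not pass by limma (adjusted p between 0.343 and 0.633). Eif2s3y is Y-linked, and a sex difference cannot be told apart from NDP-MSH in e/e mice. The lower wild-type NDP-MSH array of Cxcl10 lay at 0.5632, against 0.5623 in wild-type PBS 2. In e/e PBS mice Cxcl10 lay at -2.09 and 0.89.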

How the results depend on the processing

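Each member kept a negative wild-type difference in every alternative run that held it. Leaving out an array could not change that sign, since both NDP-MSH arrays lay below both PBS arrays in each member. No member passed in e/e mice or between genotypes in any run that kept both arrays of each group compared. With the replicate number as a block, the wild-type comparison called 14 genes, 1 of them a further Purkinje gene. The labels do not say that a number pairs arrays, and the deviations of same-numbered arrays from their group means correlated at -0.098 between the wild-type groups, 0.179 between the e/e groups and 0.443 between e/e PBS and wild-type PBS. Quantile normalization gave 20 genes and 1 further Purkinje gene. Only the 4 arrays compared gave 5 genes, 1 further Purkinje gene and 2 granule cell genes. At a signal of 8 or above, which keeps 6 of the 8 members, the members' median was -1.91 (-1.70 for the difference of effects), 7 granule cell genes were called and the difference of effects gave 5 genes, against 1 after quantile normalization. Leaving out each array in turn, the wild-type median of the members ran from -1.52 to -1.28 and the genes called from 0 (without wild-type PBS 2) to 49, with 0 to 5 further Purkinje and 0 to 5 granule cell genes. The calls ran from 0 to 51 in e/e mice (51 without e/e PBS 1, 4 without e/e PBS 2), from 0 to 7 for the difference of effects and from 0 to 4 between genotypes. Where counts changed with no change in the number of arrays or genes, the cause was not tested.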
